A study of Mus musculus with 8 samples.

Results

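Chemokines are small secreted or membrane-tethered proteins that guide leukocytes along concentration gradients by binding G protein-coupled receptors. They are named by the spacing of conserved cysteines near the amino terminus, which are adjacent in the CC family, separated by a single residue in the CXC family and by a longer stretch in the CX3C family. In an injured heart, stromal cells and resident macrophages release chemokines that draw in neutrophils and monocytes, and cardiac fibroblasts are one of the known stromal sources. The 10 genes described here are Ccl2, Ccl7, Ccl8, Ccl11, Cxcl1, Cxcl5, Cxcl12, Cxcl14, Cxcl16 and Cx3cl1, chosen by name from the 54532 genes of a table of FPKM values, in which fragments are scaled by gene length and by library depth. All 10 were found in the table, and all 10 reached at least 1 FPKM in at least 4 of the 8 libraries, the level above which genes were tested.

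The cells were mouse cardiac fibroblasts sorted for the growth factor receptor PDGFRα, without culture, from infarcts 7 days after coronary occlusion. One group of 4 libraries is labelled FTbR2KO, in which fibroblasts were to lose TbR2, the TGF-β type 2 receptor, and the other group of 4 is labelled TbR2fl/fl, the controls with the floxed gene. Mice of both groups had received tamoxifen by intraperitoneal injection to drive the deletion. The Cre line and its promoter, the age and sex of the animals and the number of animals behind a library are not given in the labels. The p-values therefore reflect library-to-library spread, which may be technical. Libraries are numbered 1 to 4 and 5 to 8 as in their titles. The design asks how loss of the receptor alters the transcriptome of infarct fibroblasts, and here that question is put to the chemokine genes.

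The reads recovered from the FPKM numbered 16088616 to 22928496 per library labelled FTbR2KO and 21200735 to 28731923 per TbR2fl/fl library. Tgfbr2, the gene of the receptor itself, measured 60.0, 58.1, 56.9 and 57.8 FPKM in the libraries labelled FTbR2KO and 49.6, 40.3, 46.7 and 45.4 FPKM in TbR2fl/fl libraries. No control reached the lowest of the libraries labelled FTbR2KO, so Tgfbr2 goes against the label. A whole-gene FPKM does not show whether a floxed exon was removed, and directions below are those of the libraries as labelled. FTbR2KO 1 and TbR2fl/fl 5 stood apart from the other libraries on the first principal component, which held 33.0% of the variance. Markers of the labelled cell type were abundant, Col1a1 and Pdgfra averaging 3934 and 65.9 FPKM in the libraries labelled FTbR2KO and 5005 and 57.6 FPKM in TbR2fl/fl libraries. Leukocyte transcripts were scarce. The pan-leukocyte gene Ptprc lay between 0 and 0.0346 FPKM in all libraries, all 6 neutrophil markers and all 7 lymphocyte markers stayed under 1 FPKM throughout, and 3 of 10 macrophage markers could be tested. The 10 macrophage markers summed to 8.31 to 12.7 FPKM in the libraries labelled FTbR2KO and 10.2 to 12.8 FPKM in TbR2fl/fl libraries. Markers of mural cells, the cells of the vessel wall, had a higher sum. All 5 could be tested, and they summed to 27.8 to 46.3 FPKM in the libraries labelled FTbR2KO and 29.2 to 34.2 FPKM in TbR2fl/fl libraries. Most of that sum was Rgs5, which averaged 23.2 FPKM in the libraries labelled FTbR2KO and 20.3 FPKM in TbR2fl/fl libraries. Group means of Kcnj8, Abcc9, Cspg4 and Myh11 lay between 1.43 and 4.87 FPKM, and those of the macrophage markers Cd68 and Lyz2 between 3.39 and 4.60 FPKM.

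Upstream sequences were available for 5 of the 10 genes in the set of RefSeq windows used (GRCm38.p6), and the other genes were not searched. Those of the gene with the highest level and of the pair with the most negative correlation across libraries are shown, 5′ to 3′ on the gene's strand and ending before the annotated start. Capitals mark matches to the κB consensus motif, the site read by NF-κB.
Cxcl1 (chr5:90890995-90891240, plus strand): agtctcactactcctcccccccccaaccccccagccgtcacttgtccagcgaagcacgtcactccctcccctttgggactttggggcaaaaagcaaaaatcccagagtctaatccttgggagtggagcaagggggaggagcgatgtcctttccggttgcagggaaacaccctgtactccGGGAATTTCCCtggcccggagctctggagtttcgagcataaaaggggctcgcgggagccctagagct
Cxcl12 (chr6:117168285-117168534, plus strand): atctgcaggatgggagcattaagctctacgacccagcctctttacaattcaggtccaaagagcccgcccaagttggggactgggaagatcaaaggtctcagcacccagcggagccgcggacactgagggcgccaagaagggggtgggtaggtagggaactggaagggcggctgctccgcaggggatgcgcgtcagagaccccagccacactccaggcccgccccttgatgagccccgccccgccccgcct
Cxcl14 (chr13:56296552-56296801, minus strand): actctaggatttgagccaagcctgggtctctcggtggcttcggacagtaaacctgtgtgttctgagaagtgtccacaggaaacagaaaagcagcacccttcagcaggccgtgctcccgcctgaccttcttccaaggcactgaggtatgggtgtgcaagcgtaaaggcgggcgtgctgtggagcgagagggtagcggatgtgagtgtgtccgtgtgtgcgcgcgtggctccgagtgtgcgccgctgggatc
The capitals in Cxcl1 hold overlapping matches on the plus and the minus strand, from 71 to 61 bases before the RefSeq start. Of all 32851 upstream windows of 250 bases in the RefSeq table, 7.25% held the κB consensus motif on either strand. A TATA box (TATAAA, found in 12.4% of windows) and an AP-1 motif (TGANTCA, found in 6.75%) were also searched on both strands. Neither motif, as spelled, was found in the 3 windows shown. Runs that differ from TATAAA by a letter, such as cataaa in the Cxcl1 window, were not searched. A TATA box may therefore be missed. Among the matched windows not shown, that of Ccl8 held TATAAA, from 32 to 27 bases before the RefSeq start. The window of Cx3cl1, also not shown, held only 79 bases, so its lack of a match cannot be set beside the shares for 250 bases. These are matches of letters and not measured binding.

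Across both groups Cxcl1 was by far the most abundant of the 10 transcripts and Ccl8 the least. Cxcl1 made up 42.4% to 60.8% of the summed FPKM of the 10 genes in each library, with a median of 46.8%. Ccl8 made up 0.196% to 0.519%. In the libraries labelled FTbR2KO the order by mean FPKM was Cxcl1, Ccl7, Cxcl12, Cx3cl1, Ccl2, Cxcl14, Cxcl5, Cxcl16, Ccl11 and Ccl8. In TbR2fl/fl libraries it was Cxcl1, Cxcl12, Cx3cl1, Ccl7, Cxcl14, Ccl2, Cxcl5, Cxcl16, Ccl11 and Ccl8. The values of neighbours in this order overlapped, except that in both groups Cxcl1 lay above the next gene and Ccl11 above Ccl8, that Cxcl14 lay above Cxcl5 in the libraries labelled FTbR2KO, and that Cxcl16 lay above Ccl11 in TbR2fl/fl libraries. The 10 genes summed to 409 to 596 FPKM in the libraries labelled FTbR2KO and 312 to 543 FPKM in TbR2fl/fl libraries.

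A limit on levels compared between genes is the length by which the authors divided. For Cxcl1 the table gives 1875 bp, which is 100% of the genomic span with its introns, while its longest protein-coding transcript in GENCODE M21 has 953 bp. Divided by that transcript length, Cxcl1 would average 482 FPKM in the libraries labelled FTbR2KO and 462 FPKM in TbR2fl/fl libraries. For the other 9 genes the table's length was 1 to 1.45 times that of the longest protein-coding transcript. After that rescaling the order in the libraries labelled FTbR2KO would be Cxcl1, Cxcl12, Ccl7, Ccl2, Cx3cl1 and Cxcl14, and in TbR2fl/fl libraries Cxcl1, Cxcl12, Cx3cl1, Ccl2, Ccl7 and Cxcl14, with the last 4 places unchanged in both.

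**Figure D1:**
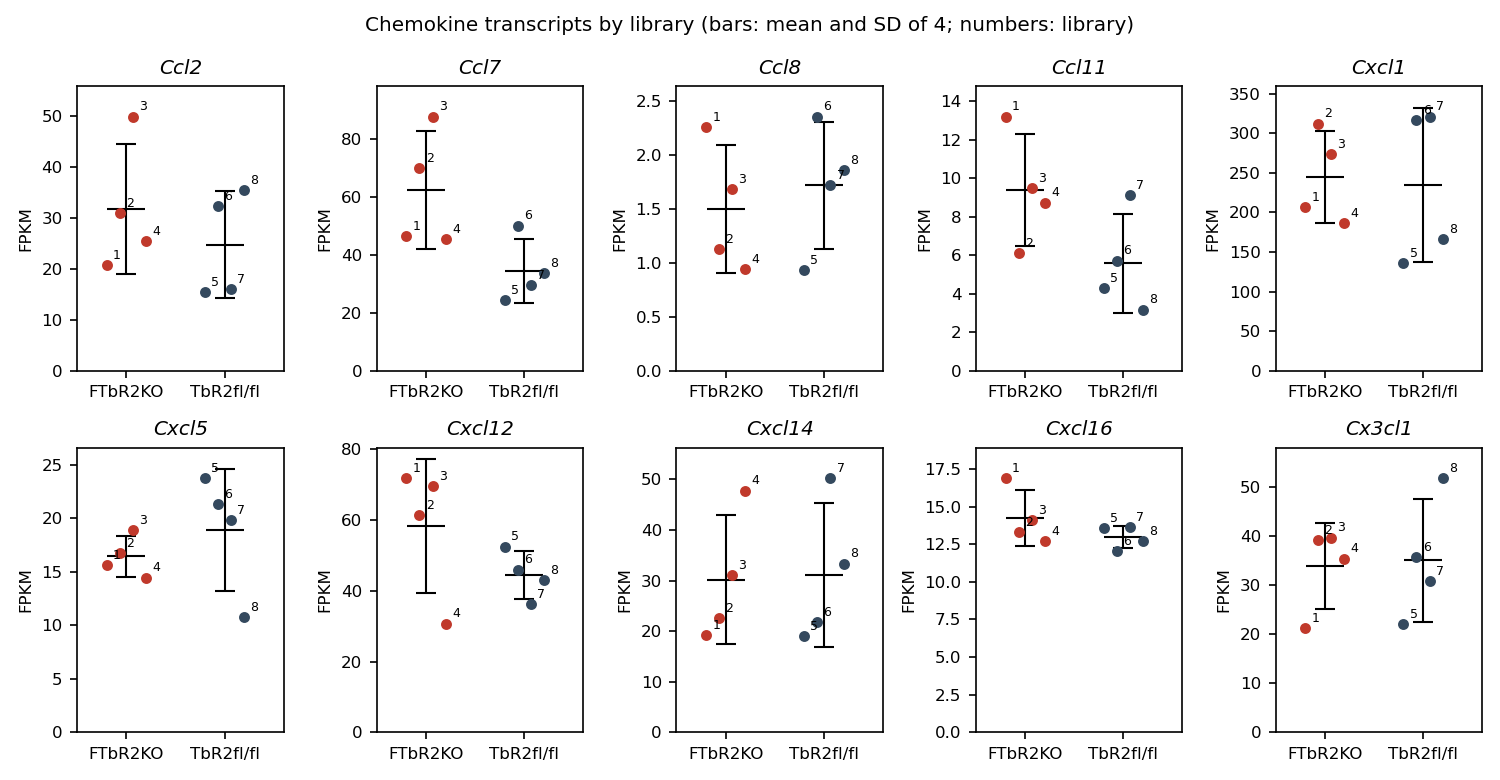
FPKM of each of the 10 chemokine genes on a linear axis from 0, libraries labelled FTbR2KO left of TbR2fl/fl; points are libraries with their title numbers, bars the mean and SD of 4. The groups overlap for every gene, and Ccl7 and Ccl11 have 2 libraries labelled FTbR2KO above all controls.

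The genotype comparison called none of the 10 genes. With limma on log2(FPKM + 1) and Benjamini-Hochberg adjustment over 11667 tested genes, 0 of 10 passed an adjusted p of 0.05, a threshold that 0.0171% of all tested genes passed. At an unadjusted p under 0.05 limma placed 2 of 10, Ccl7 and Ccl11, beside 8.61% of all tested genes, and limma's voom on the recovered reads placed 2 of 10 there with 0 past the adjusted threshold. The count of 2 became 1 without FTbR2KO 1, FTbR2KO 3 or TbR2fl/fl 5. The groups were free of overlap for 0 of 10 genes, beside 4.41% of all tested genes, 2.52% higher and 1.89% lower. Of the 10 log2 fold changes, 6 were above 0 and 4 below, with a median of 0.12 beside -0.0045 over all tested genes. When single libraries were left out that median ranged from 0.059, without TbR2fl/fl 5, to 0.21, without TbR2fl/fl 7, and it was 0.029 with both FTbR2KO 1 and TbR2fl/fl 5 left out. The split above and below 0 was 5 and 5 without TbR2fl/fl 5, 8 and 2 without FTbR2KO 1 or after quantile normalization, and 9 and 1 after conversion to TPM.

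**Figure D2:**
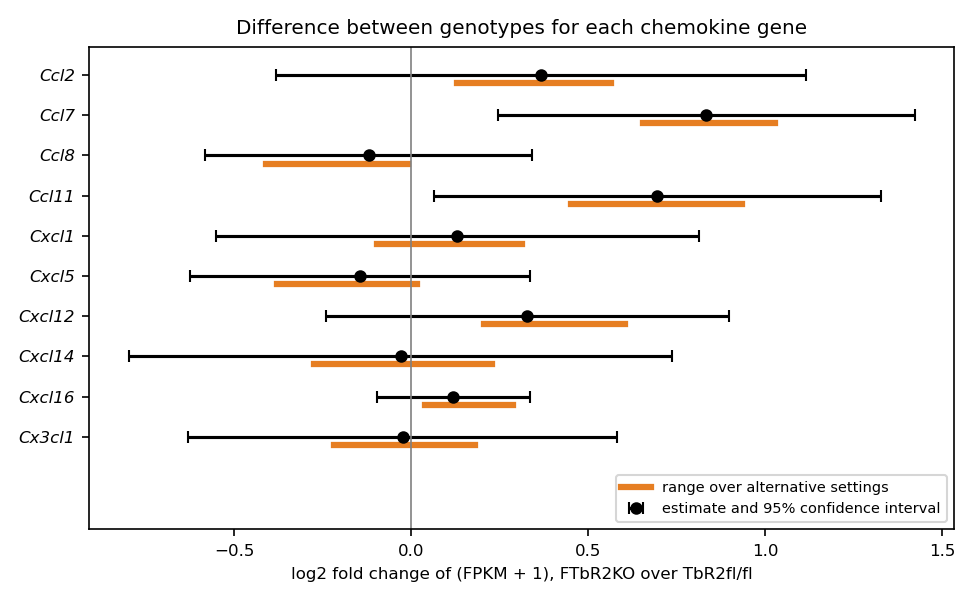
Log2 fold change of FPKM + 1, libraries labelled FTbR2KO over TbR2fl/fl, on the horizontal axis for each gene. Black points and bars are the limma estimate with its 95% confidence interval, and orange bars the range over the alternative settings; the interval lies above 0 for Ccl7 (0.25 to 1.42) and Ccl11 (0.064 to 1.33) before adjustment.

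Among the CC chemokines, Ccl2 and Ccl7 encode ligands of the monocyte receptor CCR2, and Ccl8 and Ccl11 act on further leukocytes, Ccl11 being the eosinophil attractant eotaxin. The genes sit in a cluster on chromosome 11 (GRCm38), all on the plus strand. Ccl2 spans 82035571 to 82037453, Ccl7 82045712 to 82047525, Ccl11 82057823 to 82062955 and Ccl8 82115185 to 82116799. In the annotation Ccl2 overlaps Gm17268 on the other strand, which had no read in any library. Between Ccl11 and Ccl8 lies Ccl12, which encodes another monocyte attractant of the mouse. It measured 0 FPKM in the libraries labelled FTbR2KO and 0.0322 ± 0.0372 FPKM in TbR2fl/fl libraries (n = 4 each), so expression within the cluster was uneven.

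Ccl7 measured 46.6, 69.9, 87.8 and 45.5 FPKM in the libraries labelled FTbR2KO, against 24.4, 50.1, 29.7 and 33.6 FPKM in TbR2fl/fl libraries. FTbR2KO 2 and 3 lay above all controls, while FTbR2KO 1 and 4 lay below TbR2fl/fl 6. Ccl7 had a log2 fold change of 0.83 (SE 0.26), with a limma adjusted p of 0.571 and an exact two-sided permutation p of 0.0857, where 4 against 4 libraries allow none below 0.0286. Over the alternative settings the log2 fold change ran from 0.65 to 1.03 and the adjusted p from 0.214 to 0.959.

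Ccl2 measured 20.7, 30.9, 49.8 and 25.4 FPKM in the libraries labelled FTbR2KO, against 15.4, 32.2, 16.0 and 35.3 FPKM in TbR2fl/fl libraries. FTbR2KO 3 alone lay above all controls, and the groups otherwise interleaved. On the log2 scale the difference was 0.37 (SE 0.33; limma adjusted p = 0.760; 95% interval -0.38 to 1.11). It ranged from 0.13, without FTbR2KO 3, to 0.56, without TbR2fl/fl 8, when single libraries were left out. Ccl7 exceeded Ccl2 in 4 of 4 libraries labelled FTbR2KO, and in TbR2fl/fl libraries in all but TbR2fl/fl 8.

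Ccl11 measured 13.2, 6.12, 9.49 and 8.74 FPKM in the libraries labelled FTbR2KO, against 4.28, 5.72, 9.12 and 3.18 FPKM in TbR2fl/fl libraries. FTbR2KO 1 and 3 lay above all controls, and TbR2fl/fl 7 lay above FTbR2KO 2 and 4. Ccl11 had a log2 fold change of 0.70 (SE 0.28, limma adjusted p = 0.571, exact permutation p = 0.0857). With both FTbR2KO 1 and TbR2fl/fl 5 left out, that value was 0.45.

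Ccl8 was near the floor of measurement, at 2.25, 1.13, 1.68 and 0.942 FPKM in the libraries labelled FTbR2KO and 0.933, 2.35, 1.72 and 1.86 FPKM in TbR2fl/fl libraries. These values rest on 10 to 34 reads per library, where those of the other 9 genes rest on 98 to 16748. Both groups spanned nearly the same range. Its log2 fold change was -0.12 (SE 0.20, limma adjusted p = 0.886). It ranged from -0.27, without TbR2fl/fl 5, to -0.0089, without FTbR2KO 4, when single libraries were left out, and was -0.41 without both FTbR2KO 1 and TbR2fl/fl 5.

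Cxcl1 and Cxcl5 encode ligands of CXCR2, the receptor through which neutrophils are drawn to injured tissue. Both lie on the plus strand of chromosome 5, Cxcl5 from 90759360 to 90761624 and Cxcl1 from 90891241 to 90893115. Cxcl1 measured 207, 312, 274 and 187 FPKM in the libraries labelled FTbR2KO, against 136, 316, 321 and 166 FPKM in TbR2fl/fl libraries. The controls formed a high pair, TbR2fl/fl 6 and 7, and a low pair, TbR2fl/fl 5 and 8, and the libraries labelled FTbR2KO lay between these extremes. On the log2 scale the difference was 0.13 (SE 0.30; limma adjusted p = 0.923; 95% interval -0.55 to 0.81). Its sign changed without TbR2fl/fl 5 (-0.097) or TbR2fl/fl 8 (-0.00075).

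Cxcl5 measured 15.6, 16.8, 18.9 and 14.4 FPKM in the libraries labelled FTbR2KO, against 23.8, 21.3, 19.8 and 10.8 FPKM in TbR2fl/fl libraries. Of the controls, 3 lay above all libraries labelled FTbR2KO and TbR2fl/fl 8 lay below them. Cxcl5 had a log2 fold change of -0.14 (SE 0.21, limma adjusted p = 0.866). It ranged from -0.38, without TbR2fl/fl 8, to -0.021, without TbR2fl/fl 5, when single libraries were left out, and was 0.017 after conversion to TPM. TbR2fl/fl 5 had the highest Cxcl5 and the lowest Cxcl1 of the 8 libraries, so these genes did not follow each other in that library.

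Between them on chromosome 5 lie further neutrophil and platelet chemokine genes, and beyond Cxcl1 lies Cxcl2, another CXCR2 ligand gene. Cxcl2 averaged 11.2 ± 6.01 FPKM in the libraries labelled FTbR2KO and 9.40 ± 4.30 FPKM in TbR2fl/fl libraries (n = 4 each, limma adjusted p = 0.901). Cxcl3, which lies between Cxcl5 and Cxcl1, averaged 0.0346 FPKM in the libraries labelled FTbR2KO and 0.0436 FPKM in TbR2fl/fl libraries. Per unit of counted length, then, Cxcl1 stood well above its CXCR2-ligand neighbours in both groups.

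Of all tested genes other than predicted ones, the 3 whose log2(FPKM + 1) was most like that of Cxcl1 over the 8 libraries were Lrrc20 (Pearson's r = 0.99), Bmi1 (0.96) and Nfkbiz (0.95). Nfkbiz encodes IκBζ, an inducible nuclear partner of NF-κB. It measured 76.4, 85.1, 80.7 and 66.4 FPKM in the libraries labelled FTbR2KO, against 47.5, 84.5, 97.5 and 53.4 FPKM in TbR2fl/fl libraries. TbR2fl/fl 5 and 8 were the lowest libraries for both genes. The summed level of 15 genes that cell dissociation is known to induce, 13 immediate-early or early response genes and the heat-shock genes Hspa1a and Hspa1b, was 6386, 6270, 6061 and 6571 FPKM in the libraries labelled FTbR2KO, against 5176, 7655, 8498 and 5299 FPKM in TbR2fl/fl libraries. Among the controls this sum was thus also lowest in TbR2fl/fl 5 and 8 and highest in TbR2fl/fl 6 and 7. Among the libraries labelled FTbR2KO the order of this sum ran the other way, though within a narrow range, 6061 to 6571 FPKM, against 5176 to 8498 FPKM in the controls. There it was highest in FTbR2KO 4, where Cxcl1 was lowest (187 FPKM). It was lowest in FTbR2KO 2 and 3, where Cxcl1 was highest (312 and 274 FPKM). The part of this sum in the Cxcl1 values was not tested.

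**Figure D3:**
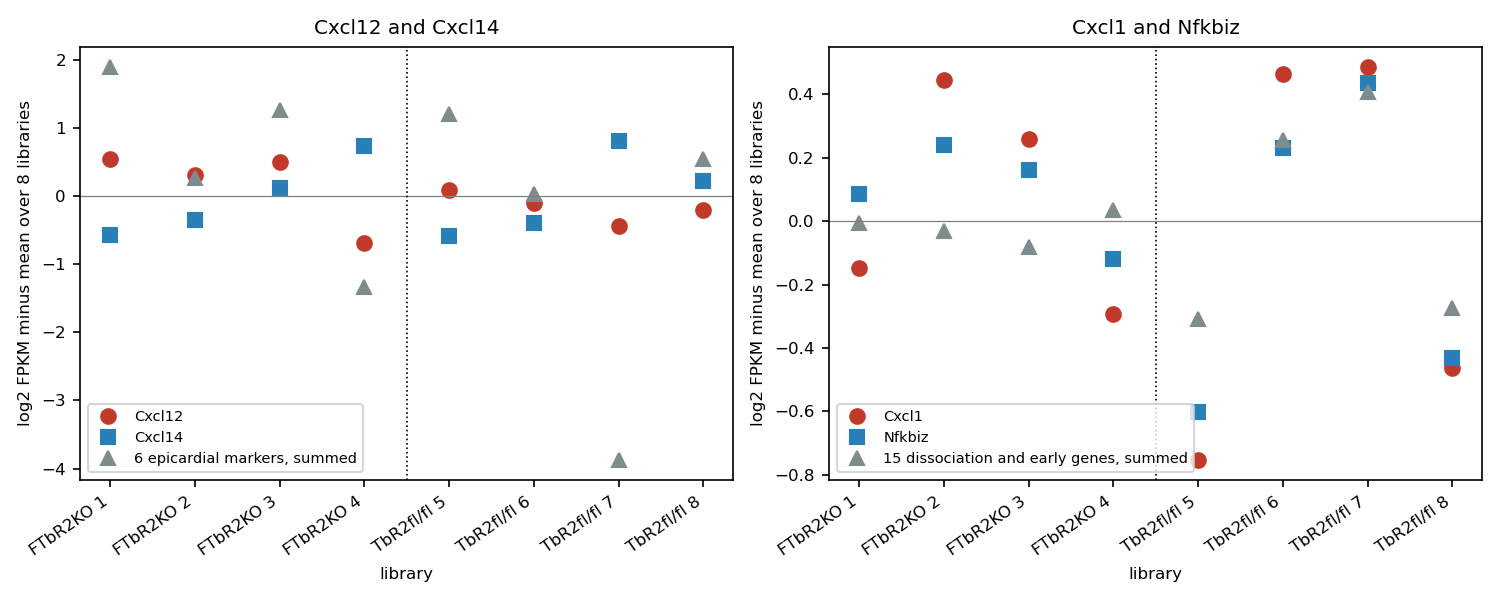
Log2 FPKM minus the mean over 8 libraries on the vertical axis, by library, FTbR2KO-labelled libraries left of the dotted line. The left panel shows Cxcl12, Cxcl14 and 6 epicardial markers, the right panel Cxcl1, Nfkbiz and the 15 dissociation-induced genes; Cxcl12 is low and Cxcl14 high in FTbR2KO 4 and TbR2fl/fl 7, and Cxcl1 and Nfkbiz are low in TbR2fl/fl 5 and 8.

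Cxcl12 and Cxcl14 encode chemokines made by stromal cells without acute inflammation. CXCL12 binds CXCR4 and is also taken up by the scavenging receptor ACKR3. On chromosome 6 Cxcl12 spans 117168535 to 117181367 (plus strand), and on chromosome 13 Cxcl14 spans 56288643 to 56296551 (minus strand). Cxcl12 measured 71.9, 61.5, 69.6 and 30.8 FPKM in the libraries labelled FTbR2KO, against 52.5, 46.0, 36.3 and 43.0 FPKM in TbR2fl/fl libraries. FTbR2KO 1, 2 and 3 lay above all controls, and FTbR2KO 4 lay below all of them. Cxcl12 had a log2 fold change of 0.33 (SE 0.25, limma adjusted p = 0.728, exact permutation p = 0.200). When single libraries were left out it ranged from 0.21, without FTbR2KO 1, to 0.60, without FTbR2KO 4 (limma adjusted p = 0.213), and did not pass in either.

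Cxcl14 measured 19.2, 22.5, 31.0 and 47.8 FPKM in the libraries labelled FTbR2KO, against 19.1, 21.8, 50.3 and 33.3 FPKM in TbR2fl/fl libraries. Each group held a library near 50 FPKM and a library near 19 FPKM, and their ranges were nearly equal. On the log2 scale the difference was -0.030 (SE 0.34; limma adjusted p = 0.987; 95% interval -0.80 to 0.74). The interval leaves room for a change of over 1.5-fold either way.

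Cxcl12 and Cxcl14 had the most negative correlation of the 45 pairs among the 10 genes (Pearson's r = -0.74, Spearman's rho -0.69, 8 libraries). With deviations from the group means r was -0.80, without the 2 libraries farthest from the median of Cxcl12 it was -0.52, and without the 2 farthest from the median of Cxcl14 it was -0.23. The relation therefore rests largely on those libraries. The correlation is a description over libraries that also share depth and cell makeup. FTbR2KO 4 and TbR2fl/fl 7, the libraries with the lowest Cxcl12, had the highest Cxcl14. The 6 markers of epicardial cells, which line the outer surface of the heart, summed to 37.9, 12.2, 24.3 and 4.04 FPKM in the libraries labelled FTbR2KO, against 23.5, 10.4, 0.694 and 14.8 FPKM in TbR2fl/fl libraries. They were therefore also lowest in FTbR2KO 4 and TbR2fl/fl 7. The markers could all be tested, all had log2 fold changes above 0 and 0 passed limma's adjusted threshold, with 0 also at an unadjusted p under 0.05. Their part in the Cxcl12 and Cxcl14 values was not tested, and in bulk libraries fewer cells of a type and less RNA per cell cannot be told apart.

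The receptor genes of this axis were measured in the same libraries. Ackr3 had 45.7, 38.1, 27.8 and 36.5 FPKM in the libraries labelled FTbR2KO, against 28.6, 24.9, 67.7 and 27.6 FPKM in TbR2fl/fl libraries. TbR2fl/fl 7 thus had the highest Ackr3 beside its low Cxcl12, whereas FTbR2KO 4 lay within the range of its group. Ackr3 had a log2 fold change of 0.097 (SE 0.30, limma adjusted p = 0.940). Cxcr4 averaged 1.75 ± 0.759 FPKM in the libraries labelled FTbR2KO and 1.40 ± 0.591 FPKM in TbR2fl/fl libraries (n = 4 each, limma adjusted p = 0.859).

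Cxcl16 and Cx3cl1 encode the chemokines that are made as transmembrane proteins and shed by the proteases ADAM10 and ADAM17. On chromosome 11, apart from the CC cluster, Cxcl16 spans 70453983 to 70459984 (minus strand), and on chromosome 8 Cx3cl1 spans 94772009 to 94782427 (plus strand). Cxcl16 was the steadiest of the 10 genes, at 16.9, 13.3, 14.1 and 12.7 FPKM in the libraries labelled FTbR2KO and 13.6, 12.1, 13.6 and 12.7 FPKM in TbR2fl/fl libraries. FTbR2KO 1 was the highest library, and the other 7 lay within a narrow band. Cxcl16 had a log2 fold change of 0.12 (SE 0.096; limma adjusted p = 0.739; 95% interval -0.098 to 0.34). That value was 0.039 without FTbR2KO 1, and 0.29 after conversion to TPM, which moved the median of all genes to 0.15. Cxcl16 overlaps Zmynd15 on the other strand, which averaged 2.38 FPKM in the libraries labelled FTbR2KO and 2.05 FPKM in TbR2fl/fl libraries, and reads of the overlap cannot be assigned without strand.

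Cx3cl1 measured 21.2, 39.2, 39.7 and 35.4 FPKM in the libraries labelled FTbR2KO, against 22.0, 35.7, 30.8 and 51.8 FPKM in TbR2fl/fl libraries. FTbR2KO 1 and TbR2fl/fl 5, the libraries set apart by the first principal component, were its lowest libraries, and TbR2fl/fl 8 was the highest. Cx3cl1 had a log2 fold change of -0.025 (SE 0.27; limma adjusted p = 0.986; 95% interval -0.63 to 0.58). It was 0.18 without FTbR2KO 1, -0.22 without TbR2fl/fl 5, 0.18 without TbR2fl/fl 8 and -0.015 with both FTbR2KO 1 and TbR2fl/fl 5 left out, so single libraries set its sign. The receptor gene Cx3cr1 averaged 0.0460 FPKM in the libraries labelled FTbR2KO and 0.0542 FPKM in TbR2fl/fl libraries.

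Of the sheddases, Adam17 measured 16.9, 17.5, 15.2 and 13.8 FPKM in the libraries labelled FTbR2KO, against 14.1, 13.2, 13.8 and 13.0 FPKM in TbR2fl/fl libraries. FTbR2KO 4 lay below TbR2fl/fl 5, and the other 3 libraries of its label lay above all controls. Its log2 fold change was 0.21 (SE 0.086), which did not pass (limma adjusted p = 0.571). Adam10 averaged 25.6 ± 2.04 FPKM in the libraries labelled FTbR2KO and 25.4 ± 1.49 FPKM in TbR2fl/fl libraries (n = 4 each).

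Most of the 10 genes varied widely among libraries of 1 genotype. The SD within groups of log2(FPKM + 1) had a median of 0.45 over the 10 genes and of 0.16 over all tested genes. For 8 of the 10 genes it lay above the 90th percentile of all tested genes, and for the same count, 8 of 10, above the 90th percentile of the 500 tested genes nearest in mean level. Cxcl14 (SD 0.59) and Ccl2 (0.57) were highest. Cxcl16 was the exception, at the 36.4th percentile of all tested genes with an SD of 0.13, and Ccl8 lay at the 89.5th percentile. The wide spread was shared by other genes of the family: it was above the 90th percentile for 6 of 7 other chemokine ligand genes tested and 3 of 5 receptor genes tested. No test was made of these lists.

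**Figure D4:**
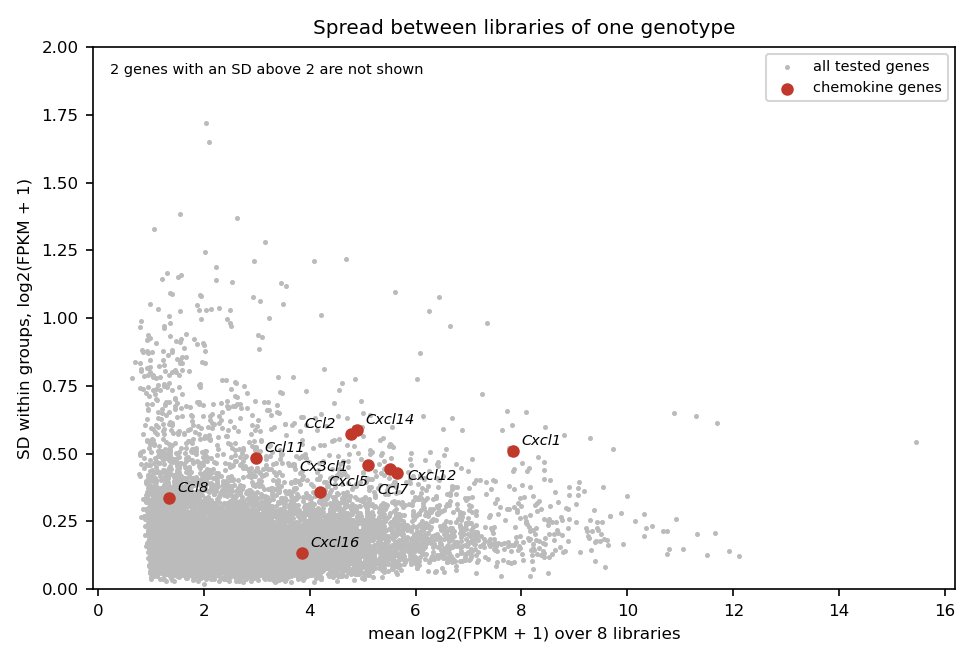
SD of log2(FPKM + 1) within groups against mean log2(FPKM + 1) over 8 libraries, for tested genes in grey (2 genes with an SD above 2 are not shown) and the 10 chemokine genes in red. The chemokine genes other than Cxcl16 (SD 0.13) lie in the upper part of the cloud, the highest being Cxcl14 (SD 0.59).

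The 10 genes did not vary as one block. Over the 45 pairs Pearson's r ran from -0.74 to 0.79 with a median of 0.16, and 29 of 45 pairs were above 0 (8 libraries, log2 FPKM + 1). The highest value joined the cluster neighbours Ccl2 and Ccl7 (r = 0.79, Spearman's rho 0.71), which was 0.84 with deviations from the group means and 0.44 without the libraries farthest from the median of Ccl2. Among the 11666 other tested genes, Ccl7 ranked 601st by likeness to Ccl2, so many genes outside the family followed Ccl2 more closely. Ccl2 and Cx3cl1 had r = 0.75 although they lie on different chromosomes. By library, FTbR2KO 3 lay above the mean for 10 of the 10 genes, and TbR2fl/fl 5 was the lowest library for 5 of the 10 and above the mean for 3.

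**Figure D5:**
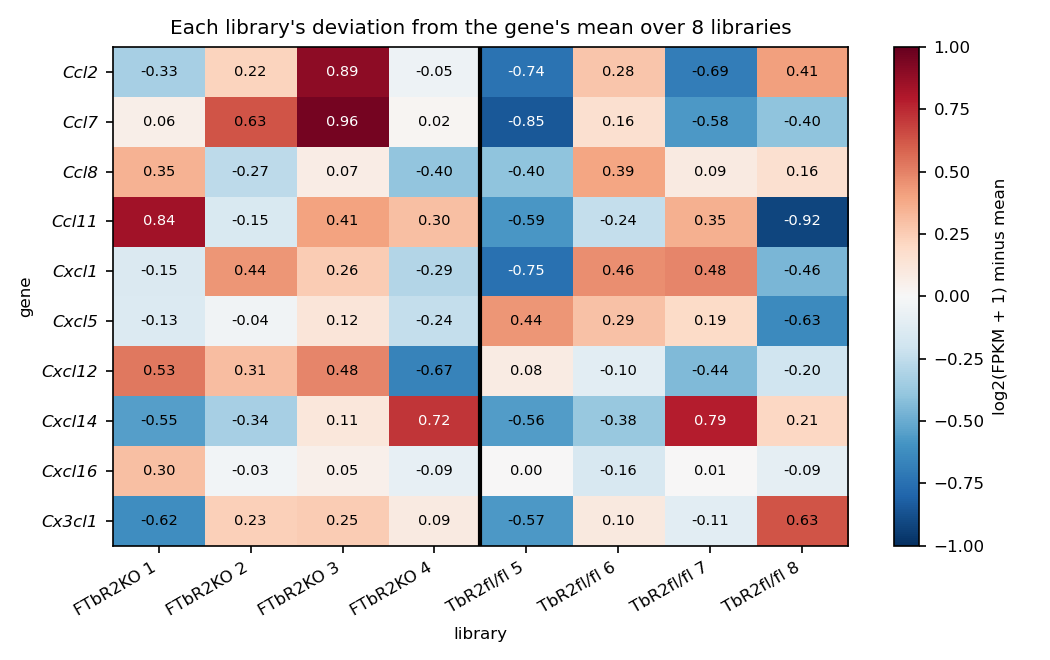
Each library's log2(FPKM + 1) minus the gene's mean over 8 libraries, for the 10 chemokine genes in rows and libraries in columns, FTbR2KO-labelled libraries left of the line. FTbR2KO 3 is at or above the mean in all 10 rows, and TbR2fl/fl 5 is lowest in 5.

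The genes most like the other members by the same measure were of mixed kinds. For Ccl11 they were Penk, which encodes proenkephalin, and Igfbp4, an insulin-like growth factor binding protein gene (r = 0.96 and 0.95). Penk had 16.1, 6.55, 15.5 and 8.81 FPKM in the libraries labelled FTbR2KO, against 5.38, 6.80, 12.0 and 2.77 FPKM in TbR2fl/fl libraries, with TbR2fl/fl 8 lowest, as it was for Ccl11. For Cxcl12 the nearest 3 were C9orf72, the transcription factor gene Snai2 and Ptges, a prostaglandin E synthase gene (r = 0.96, 0.95 and 0.95). The first in likeness was Cstf2 for Ccl2 (r = 0.99), Sf3b1 for Ccl7 (0.99), Lztfl1 for Ccl8 (0.95), Wasf1 for Cxcl5 (0.93), Timm29 for Cxcl14 (0.98), Maob for Cxcl16 (0.95) and Lsm12 for Cx3cl1 (0.99). With 8 libraries and 11666 genes compared, a value of this size is a description only.

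Other chemokine ligand genes were mostly silent or low. Of 27 on the list, 19 stayed under 1 FPKM in every library and 7 could be tested, 0 of which passed limma's adjusted threshold and 0 had an unadjusted p under 0.05. Of the 7, 5 had log2 fold changes above 0 and 2 below (median 0.20). Cxcl13, which encodes a B cell attractant, had the highest mean of the list over the 8 libraries, though not over TbR2fl/fl libraries, where Cxcl2 was higher. It was uneven, at 23.5, 2.75, 40.1 and 0.0761 FPKM in the libraries labelled FTbR2KO, against 12.3, 12.2, 0 and 7.64 FPKM in TbR2fl/fl libraries. Its lowest libraries were FTbR2KO 4 and TbR2fl/fl 7, where Cxcl12 and the epicardial markers were also lowest. Ccl9, a macrophage inflammatory chemokine gene of the mouse, averaged 7.52 ± 4.30 FPKM in the libraries labelled FTbR2KO and 4.22 ± 1.68 FPKM in TbR2fl/fl libraries (n = 4 each, limma adjusted p = 0.677). Cxcl10, an interferon-induced T cell attractant gene, averaged 4.41 ± 1.65 FPKM in the libraries labelled FTbR2KO and 3.33 ± 0.620 FPKM in TbR2fl/fl libraries (n = 4 each, limma adjusted p = 0.737).

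Ccl5, which encodes the T cell and monocyte attractant RANTES, was the 1 gene of the 27 whose groups did not overlap, and it was singled out after its values were seen. Over all tested genes, 4.41% had groups free of overlap, 1.89% lower. That share does not apply to Ccl5 or to most of the 27, which were under the level for testing. Of the 7 ligand genes tested, 0 had groups free of overlap. Whether 1 such gene in this list of 27 is unusual was not tested. Ccl5 lay at 0.420 to 0.638 FPKM in the libraries labelled FTbR2KO and 0.662 to 1.14 FPKM in TbR2fl/fl libraries, from 38 and 100 reads in all. By exact permutation p was 0.0286, the lowest value 4 against 4 libraries can give, with no adjustment for the 27 genes looked at, and Ccl5 was below the level needed for limma.

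Most chemokine receptor genes were low in the sorted cells. Of 23 receptor genes 16 stayed under 1 FPKM in every library, among them Ccr2, with a mean of 0.0128 FPKM in the libraries labelled FTbR2KO and 0.0335 FPKM in TbR2fl/fl libraries. Cxcr2 had no read in any library. The 5 tested were Cxcr4, Ccrl2 and the atypical receptor genes Ackr2, Ackr3 and Ackr4, whose products bind chemokines without the usual G protein signal. Of the 5 tested, 0 passed limma's threshold and 0 had an unadjusted p under 0.05. Ackr4, a scavenger of homeostatic CC chemokines, had 4.50, 5.71, 4.87 and 11.95 FPKM in the libraries labelled FTbR2KO, against 4.66, 8.26, 7.67 and 11.3 FPKM in TbR2fl/fl libraries.

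Genes of NF-κB and its targets, cytokine receptors, proteases that cut chemokines and dissociation-induced genes were also compared. The counts below stand beside 8.61% of all tested genes at a limma unadjusted p under 0.05. Groups were free of overlap for 4.41% of all tested genes. Of 18 subunits, inhibitors and targets of NF-κB, 17 were tested and 0 passed limma's threshold, with 1 at an unadjusted p under 0.05. Of the 17, 15 lay above 0 and 2 below (median log2 fold change 0.11). Over all tested genes 5694 lay above 0 and 5973 below (median -0.0045). The 18 genes summed to 368 to 554 FPKM in the libraries labelled FTbR2KO and 325 to 489 FPKM in TbR2fl/fl libraries. Whether they vary independently of each other was not tested. Birc3, an inhibitor of apoptosis induced by NF-κB, averaged 7.30 ± 1.30 FPKM in the libraries labelled FTbR2KO and 5.71 ± 0.739 FPKM in TbR2fl/fl libraries (n = 4 each, limma adjusted p = 0.576). Of 16 cytokine and Toll-like receptor genes and their adaptors, all tested, 0 passed and 2 had an unadjusted p under 0.05, with 12 above 0 and 4 below (median 0.088). Tlr3, the sensor of double-stranded RNA, was higher in 4 of 4 libraries labelled FTbR2KO, at 4.34 ± 0.574 FPKM, than in any TbR2fl/fl library, at 3.46 ± 0.195 FPKM (log2 fold change 0.26, limma adjusted p = 0.571). Il1rap, the accessory chain of the IL-1 receptor, averaged 3.78 ± 0.516 FPKM in the libraries labelled FTbR2KO and 3.05 ± 0.144 FPKM in TbR2fl/fl libraries (n = 4 each, limma adjusted p = 0.571). Of 8 proteases that cut chemokines 6 were tested and 0 passed, with 2 at an unadjusted p under 0.05, Adam17 and Ctsk. Ctsk, the collagen-degrading cathepsin K, had 94.6 to 127 FPKM in the libraries labelled FTbR2KO and 128 to 140 FPKM in TbR2fl/fl libraries (limma adjusted p = 0.571), without overlap. Of the 15 dissociation-induced genes 0 passed and 0 had an unadjusted p under 0.05, with 5 above 0, Hspa1a (0.54) and Hspa1b (0.69) among them, and 10 below.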

How the data were processed

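Gene-level FPKM were deposited by the authors for 8 libraries, 1 column each, with gene names, coordinates, strand and length per the file headers (unit of length, bp, unscaled). Per the labels' protocols, poly(A) RNA was selected and prepared with a NEBNext Ultra kit. HTSeq 0.6.1, Cufflinks 2.1.1, TopHat2 2.0 and CASAVA are listed without roles in the submitters' processing notes, with builds GRCm38.p6 and mm10; whether counting used strand is not stated there. Multiplied by length, 100% of nonzero FPKM were whole multiples (within 0.01) of 1 step per library, which gave reads per gene.

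Genes reaching 1 FPKM in 4 or more of the 8 libraries were compared as log2(FPKM + 1), a scale that understates changes of low genes, with limma 3.58.1 in R 4.3.3 (trended variance, no covariate, Benjamini-Hochberg, adjusted p under 0.05, two-sided). Single genes were also compared by exact permutation of FPKM. Steps were tested on simulated data. The 10 genes and the lists were chosen with earlier results of these data known, so no list was tested. Named genes were the 10, fixed markers, and from each list the 4 with the smallest p and the 4 with the highest mean. Ccl5, Ccl12, Cxcl3, Ccr2, Cxcr2, Cx3cr1, Gm17268 and Zmynd15 are named outside that rule, for their position, their ligand or their values. Alternatives changed the pseudocount, filter, scaling, weights, variance trend and covariates, or left out libraries. Leaving out FTbR2KO 1 and TbR2fl/fl 5 together was chosen after seeing the data. Upstream sequences are from RefSeq (GRCm38.p6) and gene structures from GENCODE M21 (GRCm38). A marked value of a marker gene is not reported here.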

Additional observations from a re-analysis of the deposited data

Results flagged for a closer look

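Within each group of 4 libraries the highest or lowest value was compared with the others by Dixon's ratio, the gap to the nearest library over the whole range, for 83 genes in 166 groups, of which chance marks about 1 in 20. None of the 10 chemokine genes was marked (0 of 20 groups). In all 11 of 166 groups were marked, close to that chance rate, and 10 of them are given here. Among chemokine receptors and NF-κB targets, Ackr4 stood high in FTbR2KO 4 (11.95 FPKM against 4.50 to 5.71 in the other libraries of that label, ratio 0.837), Ackr3 in TbR2fl/fl 7 (67.7 against 24.9 to 28.6 FPKM in the other controls, ratio 0.913) and Ptx3, which encodes pentraxin 3, in FTbR2KO 3 (60.6 against 32.8 to 34.7 FPKM, ratio 0.931). Among markers of other cells, Kcnj8 stood high in FTbR2KO 3 (3.91 FPKM, ratio 0.847) and Cdh5 in TbR2fl/fl 8 (1.10 FPKM, ratio 0.835). Others were values close to 0: Ptprc in FTbR2KO 2 (0.0346 FPKM, ratio 0.917), Cd4 in TbR2fl/fl 5 (0.0591 FPKM, ratio 0.837), and S100a9 in FTbR2KO 4 and in TbR2fl/fl 8 and Cd3d in FTbR2KO 1, each with all other libraries of the group at 0 (ratio 1).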

How the results depend on the processing

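No paired analysis was possible because the groups share no replicate number. In all 19 alternatives 0 of the chemokine genes tested passed the adjusted threshold (10 tested, 9 with a filter at 5 FPKM, which removed Ccl8). Their median log2 fold change was 0.12 in the main fit. Over the alternatives it ran from 0.029, without FTbR2KO 1 and TbR2fl/fl 5 together, to 0.29 after conversion to TPM. Over all genes 2 passed. The count was 1 with the filter at 5 FPKM, and 2 to 8 when single libraries were left out, the 8 being without FTbR2KO 4. Conversion to TPM moved the median of all genes from -0.0045 to 0.15. Of 189 values for single chemokine genes, 172 kept their direction and 17 changed sign, none past the threshold. After TPM these were Cxcl5 (0.017), Cxcl14 (0.14) and Cx3cl1 (0.14), each no higher than the shift of all genes, after quantile normalization Cxcl14 (0.011) and Cx3cl1 (0.014), with array weights Cxcl1 (-0.034) and Cxcl14 (0.078), and without FTbR2KO 1 and TbR2fl/fl 5 together Cxcl1 (-0.026). Leaving out single libraries gave log2 fold changes of -0.097 to 0.31 for Cxcl1, -0.27 to 0.23 for Cxcl14 and -0.22 to 0.18 for Cx3cl1, with sign changes without TbR2fl/fl 5 (-0.097) or 8 (-0.00075) for Cxcl1, without FTbR2KO 1 (0.15) or 2 (0.077) or TbR2fl/fl 7 (0.23) or 8 (0.035) for Cxcl14, and without FTbR2KO 1 (0.18) or TbR2fl/fl 6 (0.0049) or 8 (0.18) for Cx3cl1; the cause was not tested. Depth limits Ccl8, which rests on 10 to 34 reads per library.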
